A study of Rattus norvegicus with 21 samples.

Results

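Splicing regulators of the SR and hnRNP families were followed in a rat beta-cell line exposed to inflammatory cytokines. The genes were taken by name alone: every gene on the array whose symbol starts with Srsf or Hnrn, together with Tra2a, Tra2b, Ptbp1, Ptbp2, Rbfox2, Nova1 and Elavl4. Of the 13438 genes represented on the array, 33 met this rule and had a probe set listed under a single symbol: 12 SR proteins (Tra2a and Tra2b counted with them), 17 hnRNP proteins and 4 others (Ptbp1, Ptbp2, Rbfox2 and Elavl4). Where a gene had several probe sets, the brightest on average across the 21 arrays was used. Nova1 had no probe set listed under its symbol, and the 2 probe sets of Hnrnpk were listed under several genes, so neither is described.

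The cells were INS-1, an insulin-secreting line from a rat insulinoma. Per the labels, the groups were a line stably transfected with a plasmid encoding cathepsin H (CTSH), here named pCTSH1 as in the sample titles, a line carrying the empty vector (pcDNA), and untransfected cells (INS1). pCTSH1 and pcDNA cells were taken after 0, 6 or 16 h of 150 pg/ml recombinant mouse IL-1β with 5 ng/ml recombinant rat IFNγ, and INS1 cells at 0 h, all after 3 days of preculture, which gave 7 groups of 3 arrays. The labels name pCTSH1 as 1 of several overexpressing clones, so a difference between pCTSH1 and pcDNA can belong to that clone as well as to CTSH. They number the replicates without saying whether these are separate cultures, and p-values then measure the spread between these arrays. No untreated cells were taken at 6 or 16 h, so cytokine exposure and time in culture cannot be told apart.

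SR proteins carry an RNA-binding domain and a tail rich in arginine and serine. They bind enhancer sequences in exons and recruit the splicing machinery to the neighbouring splice sites, and kinases of the SRPK and CLK families set their activity and place in the nucleus by phosphorylating the tail. The hnRNP proteins coat nascent transcripts, and many of them oppose SR proteins by silencing exons. Both families regulate their own transcripts, often through exons whose inclusion sends the mRNA to nonsense-mediated decay. In beta cells, Rbfox2, the Elavl proteins and Nova1 act in splicing programmes shared with neurons, and Ptbp1 is known for binding and stabilising insulin mRNA.

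Of the 33 genes, 32 read above the background of the array on all 21 arrays. Srsf7 was at background on 17 arrays and is given no fold. The 8 measured markers of beta cells, among them Ins1, Ins2, Iapp and Pdx1, were above background on every array. So were all 5 neuron markers, and 1 of 3 alpha-cell and 1 of 5 exocrine and duct markers in each group. Of the 4 delta and PP cell markers, none was above background on all arrays of any group. Hhex and Pyy among them were at background in all groups, whereas Sst and Ppy were not in every group. The probe set for rat Ctsh read between 3.48 and 5.08, at background on 14 of 21 arrays, so it does not check the transfection.

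After 16 h of cytokines, 22 of the 33 genes were called in pCTSH1 (8 higher, 14 lower) and 24 in pcDNA (10 higher, 14 lower). Over all genes, 55.2% were called in pCTSH1 and 55.3% in pcDNA at the same threshold, an adjusted p of 0.05 in limma, and over the brighter 50% of genes 76.4% and 76.3%. By direction, 25.2% of all genes were higher and 30.1% lower in pCTSH1, and 25.8% higher and 29.5% lower in pcDNA. The shares of the splicing regulators, 66.7% in pCTSH1 and 72.7% in pcDNA, lay between those of all genes and of the brighter 50%. Their median absolute log2 difference was 0.55 in pCTSH1 and 0.52 in pcDNA, against 0.53 and 0.54 for the brighter 50% of genes. A log2 difference of 1 is a doubling of intensity, and all changes below are log2 differences.

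The direction was shared between the lines. At 16 h, 8 genes were higher and 14 lower in both pCTSH1 and pcDNA, none was called in opposite directions, and Hnrnpc and Hnrnpul1 passed the test in pcDNA but not in pCTSH1. The share of all genes called in both lines was not taken. Over all genes, 0.275% had a response at 16 h called as different between the lines, so such agreement is not particular to these genes. Genes called in neither line were Hnrnpa1, Hnrnpa3, Hnrnpd, Hnrnpf, Hnrnpl, Hnrnpr, Ptbp1, Srsf7 and Srsf10. Hnrnpa3 is listed by its brightest probe set. Its further probe sets were all called lower, with -1.57 to -0.38 in pCTSH1 and -1.47 to -0.41 in pcDNA. Across the 33 genes the changes of the 2 lines had a Pearson r of 0.985 at 16 h and 0.941 at 6 h, given as a description, since the arrays were normalised together and genes are not independent replicates. In these bulk samples, fewer cells expressing a gene and less of its RNA per cell cannot be told apart, and the values are relative to the other transcripts on the array.

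At 6 h the response was small. In pCTSH1 8 genes were called (3 higher, 5 lower) and in pcDNA 12 (4 higher, 8 lower), against 34.2% and 39.0% of all genes and 48.1% and 54.2% of the brighter 50%. Of all genes, 13.0% were higher and 21.3% lower in pCTSH1, and 14.5% higher and 24.6% lower in pcDNA. Rbfox2, Elavl4 and Tra2a were higher in both lines, and Hnrnpa0, Hnrnpu, Hnrnpr and Ptbp1 lower in both. The count for pcDNA depended on the arrays included: it was 7 without pcDNA replicate 1 or 3 at 0 h, or without pcDNA replicate 2 at 6 h. More genes were called later, among the 33 and over all genes. In pCTSH1 11 of the 14 genes lower at 16 h, and in pcDNA 9 of 14, had no call at 6 h and a call between 6 and 16 h. The share of all genes with this course was not taken. Between 6 and 16 h, 23 of the 33 genes were called in pCTSH1 and 26 in pcDNA. Of all genes 49.2% and 49.9% were called, and of the brighter 50% 70.1% and 71.2%. The 26 include Srsf7, at background on most arrays, whose call was lost when single arrays were left out.

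**Figure D1:**
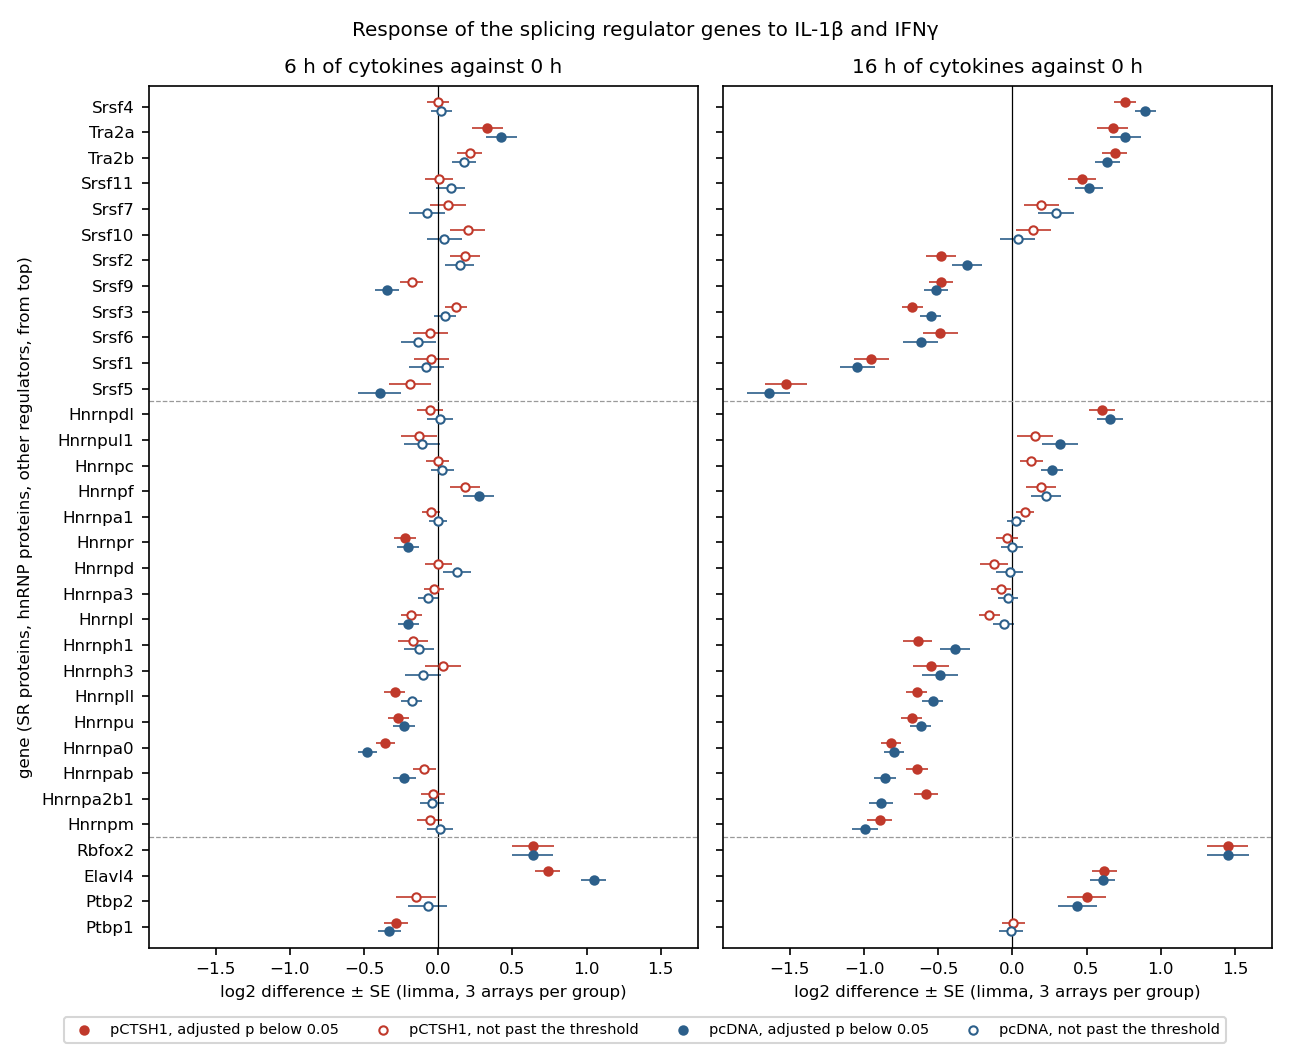
Log2 difference ± SE (limma) for each of the 33 genes at 6 h (left) and 16 h (right) of cytokines against 0 h, in pCTSH1 (red, upper of each pair) and pcDNA (blue, lower of each pair), with filled points for adjusted p below 0.05. Dashed lines separate SR proteins, hnRNP proteins and the 4 other regulators, and the points of both lines lie close together, from Srsf5 at -1.53 and -1.64 to Rbfox2 at 1.45 in both lines at 16 h.

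Among the 12 SR proteins, 4 rose and 6 fell at 16 h in each line. By the brightest probe sets, the 6 that fell were Srsf1, Srsf2, Srsf3, Srsf5, Srsf6 and Srsf9. The 4 that rose were Srsf4, Srsf11, Tra2a and Tra2b, although the second probe set of Tra2b fell (-0.21 in pCTSH1 and -0.19 in pcDNA). The family thus held changes in both directions, with medians of -0.17 in pCTSH1 and -0.13 in pcDNA.

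Among the brightest probe sets, that of Srsf5, an SR protein that binds exonic enhancers, fell furthest. In pCTSH1 it read 8.003, 8.41 and 8.67 at 16 h, against 9.97, 9.78 and 9.92 at 0 h, and in pcDNA 8.37, 8.26 and 8.67 at 16 h, against 10.17, 9.92 and 10.15 at 0 h. No array at 16 h overlapped the 0 h arrays of its line. The log2 difference was -1.53 ± 0.14 (SE) in pCTSH1, with a limma adjusted p of 1.9e-08, and -1.64 ± 0.14 in pcDNA, with 6.2e-09, or 0.347 and 0.32 of the intensity at 0 h. Second probe sets of Srsf6 (-2.40 in pCTSH1 and -2.26 in pcDNA) and Srsf1 (-2.12 and -2.02) fell more.

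Srsf1, the best studied SR protein and a proto-oncogene in several human tumours, showed the same late fall. At 16 h it read 10.26, 10.60 and 10.84 in pCTSH1 and 10.39, 10.35 and 10.71 in pcDNA. The arrays at 0 h lay between 11.49 and 11.59 in both lines, and those at 6 h between 11.43 and 11.51, so the fall lay between 6 and 16 h, and every array at 16 h was below every earlier one. The log2 difference at 16 h was -0.95 ± 0.12 in pCTSH1 and -1.05 ± 0.12 in pcDNA (limma adjusted p 8.4e-07 and 2.2e-07).

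The other SR genes that fell changed less on their brightest probe sets. Srsf3, the smallest SR protein and a factor in mRNA export, changed by -0.67 ± 0.07 in pCTSH1 and -0.55 ± 0.07 in pcDNA. For Srsf6, whose human counterpart is known for acting on transcripts of death genes in beta cells, the values were -0.49 and -0.62, and for Srsf9 they were -0.48 and -0.52. Srsf2, which also takes part in transcription elongation, changed by -0.48 and -0.30, and its call in pcDNA was lost without replicate 2 at 0 h (-0.28) or replicate 3 at 16 h (-0.22), and with arrays centred on their medians (-0.21) or cyclic loess (-0.19).

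Srsf4, a long-tailed member of the family, rose late. It read 11.18, 11.30 and 11.24 at 16 h in pCTSH1, against 10.59, 10.39 and 10.46 at 0 h. In pcDNA it read 11.26, 11.34 and 11.25 at 16 h, against 10.51, 10.33 and 10.33 at 0 h. The groups at 16 and 0 h did not overlap in either line, and the log2 differences were 0.76 ± 0.07 and 0.90 ± 0.07, whereas those at 6 h were -0.0021 and 0.02 and did not pass the test.

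Tra2a and Tra2b, the SR-like transformer-2 proteins that bind purine-rich exonic enhancers, also rose on their brightest probe sets. Tra2a averaged 9.22, 9.55 and 9.90 at 0, 6 and 16 h in pCTSH1 and 9.26, 9.69 and 10.03 in pcDNA, with calls at both 6 and 16 h, although the call at 6 h in pCTSH1 was lost without replicate 1 (0.28) or 2 (0.33) at 0 h or replicate 2 at 6 h (0.27). Its arrays at 16 h read 9.85 to 9.97 in pCTSH1 and 9.97 to 10.07 in pcDNA, above every 0 h array of the same line. Tra2b was called at 16 h, with 0.69 ± 0.08 in pCTSH1 and 0.64 ± 0.08 in pcDNA. At 6 h its differences of 0.21 and 0.17 did not pass the test, but did in both lines with trend and robust eBayes (adjusted p 0.0094 and 0.0312) or the mean of its probe sets (0.0118 and 0.0336). The brightest probe set of Tra2b owes that rank to the 16 h arrays, the same values that give its rise. The second probe set of Tra2b read higher on every array at 0 and 6 h. At 16 h that second set changed by -0.21 in pCTSH1 and -0.19 in pcDNA. Srsf11 differed by 0.47 and 0.52 at 16 h. The dim Srsf10, a repressor of splicing in its dephosphorylated form, had differences of 0.14 and 0.04 that did not pass the test. With cyclic loess in place of the deposited scaling, Srsf10 was called in pCTSH1 (0.32).

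**Figure D2:**
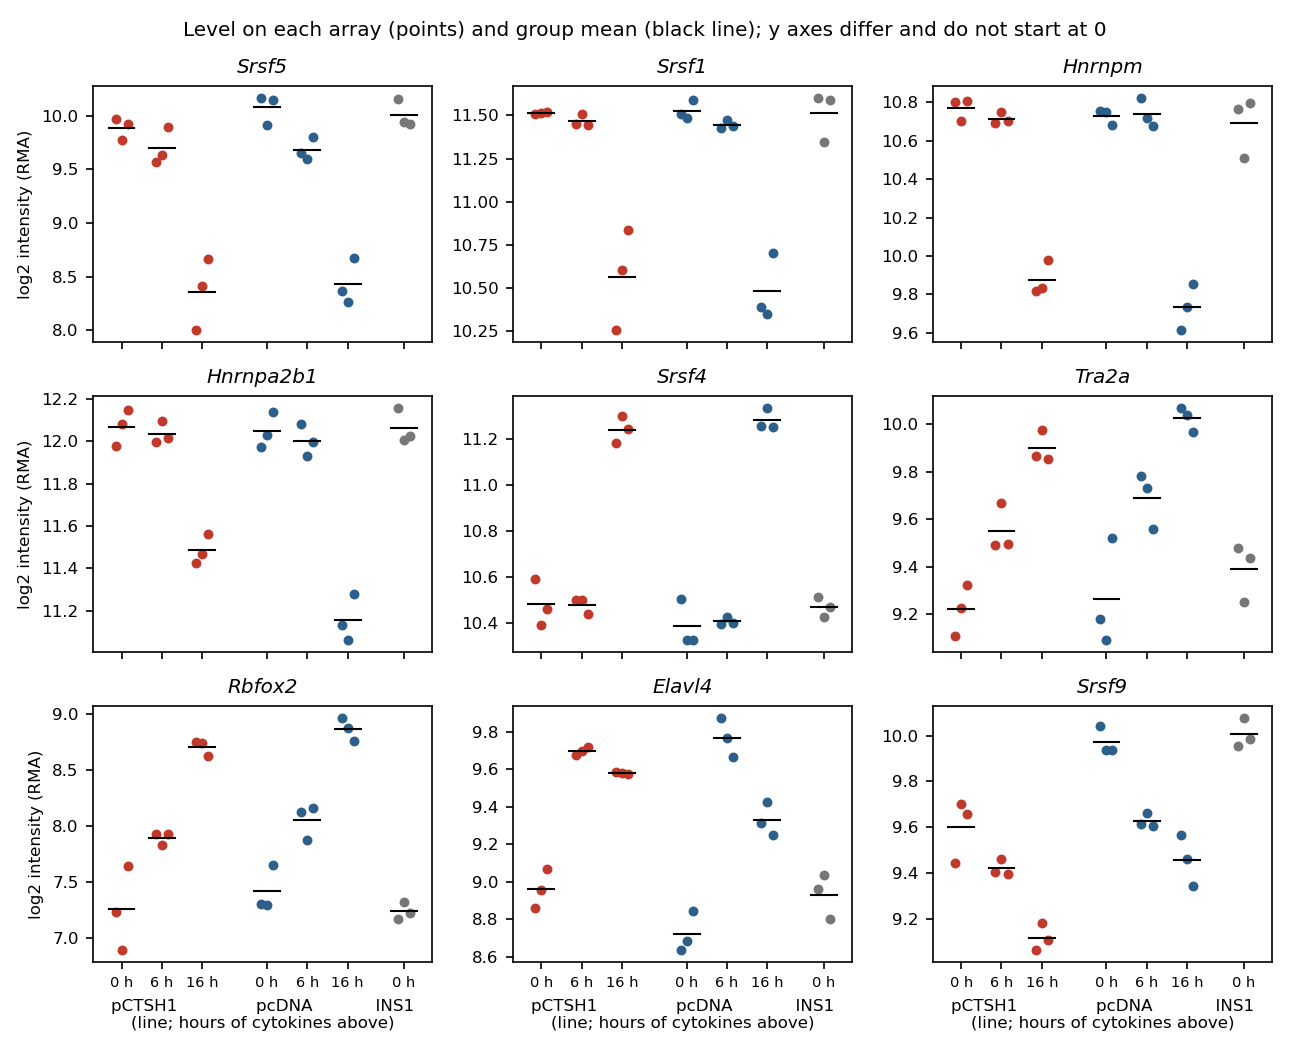
Log2 intensity (RMA) on every array for 9 genes, by line and hours of cytokines, with points for the 3 arrays of a group and a black line for their mean; y axes differ between panels and do not start at 0. Srsf5, Srsf1, Hnrnpm and Hnrnpa2b1 drop at 16 h, Srsf4 is up at 16 h, Tra2a and Rbfox2 climb at both times, Elavl4 is highest at 6 h, and Srsf9 lies lower in pCTSH1 than in pcDNA at each time.

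Promoter windows are shown for 2 SR genes that fell and 2 that rose at 16 h on their brightest probe sets. RefSeq windows of 250 bases before 1 start site per gene (build GRCr8) were available for 30 of the 33 genes, all but Hnrnpll, Rbfox2 and Tra2a. The start site lay at the outer end of the annotated gene for Srsf4, but 2758 bases inside it for Srsf5, 979 for Srsf1 and 39 for Tra2b. Among those with a single window, the 2 SR genes that fell most and the 2 that rose most by brightest probe set were taken. Their windows are printed 5′ to 3′ on the strand of the gene, with a match to a motif in capitals.
Srsf5, chr6:106336506-106336755, plus strand: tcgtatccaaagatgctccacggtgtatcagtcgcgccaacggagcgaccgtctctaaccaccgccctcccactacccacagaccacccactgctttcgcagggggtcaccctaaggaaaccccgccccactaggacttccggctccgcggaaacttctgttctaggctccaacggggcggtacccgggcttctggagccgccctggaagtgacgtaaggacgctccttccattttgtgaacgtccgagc
Srsf1, chr10:73336248-73336497, plus strand: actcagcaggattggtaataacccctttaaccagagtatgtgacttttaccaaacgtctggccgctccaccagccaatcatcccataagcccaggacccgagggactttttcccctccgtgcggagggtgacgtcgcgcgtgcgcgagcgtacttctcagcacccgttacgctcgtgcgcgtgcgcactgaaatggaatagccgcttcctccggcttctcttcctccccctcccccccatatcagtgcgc
Srsf4, chr5:149345288-149345537, plus strand: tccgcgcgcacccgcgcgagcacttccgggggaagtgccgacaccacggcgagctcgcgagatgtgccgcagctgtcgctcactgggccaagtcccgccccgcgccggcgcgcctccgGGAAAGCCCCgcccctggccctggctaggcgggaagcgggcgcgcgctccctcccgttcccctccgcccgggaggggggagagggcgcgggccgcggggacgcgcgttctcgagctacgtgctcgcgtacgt
Tra2b, chr11:92293192-92293441, plus strand: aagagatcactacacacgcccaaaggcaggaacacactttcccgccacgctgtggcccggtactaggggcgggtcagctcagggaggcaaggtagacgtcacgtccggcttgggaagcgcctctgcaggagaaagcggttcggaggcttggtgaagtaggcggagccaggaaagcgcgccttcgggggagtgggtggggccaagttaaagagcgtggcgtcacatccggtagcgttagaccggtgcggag
Motifs of factors activated by IL-1β or cAMP were searched on both strands of all windows. The NF-κB site (GGG and TTTCC with 2 bases between them) was found in 1 of 30 windows, that of Srsf4, as the reverse complement shown in capitals, against 1.28% of the 27457 windows of all genes. The cAMP response element (TGACGTCA) had no match in the 30 windows, against 1.7% of all. These letters are a description of the windows and say nothing of binding. The windows of the splicing regulators had a median GC content of 62.8%, against 52% over all genes.

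By the brightest probe sets, 8 of the 17 hnRNP genes fell at 16 h in each line. These were Hnrnpa0, Hnrnpa2b1, Hnrnpab, Hnrnph1, Hnrnph3, Hnrnpll, Hnrnpm and Hnrnpu. Hnrnpdl rose in both lines. Hnrnpc, which binds uridine tracts, had differences of 0.13 in pCTSH1, which did not pass the test, and 0.27 in pcDNA, which did, and for Hnrnpul1, a relative of Hnrnpu, they were 0.15 and 0.32. With cyclic loess Hnrnpc was called in pCTSH1 as well (0.23). The call for Hnrnpul1 was lost without pcDNA replicate 1 (0.25) or 2 (0.32) at 0 h or replicate 2 at 16 h (0.24), and neither gene's response was called as different between the lines.

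Among the brightest probe sets of the hnRNP genes, that of Hnrnpm, a splicing factor that binds GU-rich RNA, fell furthest in both lines. It read 9.82, 9.83 and 9.98 at 16 h in pCTSH1, against 10.80, 10.70 and 10.81 at 0 h. In pcDNA it read 9.61, 9.73 and 9.85 at 16 h, against 10.76, 10.75 and 10.68 at 0 h. The groups did not overlap, with log2 differences of -0.89 ± 0.09 and -0.99 ± 0.09 (limma adjusted p 2.6e-08 and 5.6e-09), and no change passed the test at 6 h. Further probe sets of Hnrnpa2b1 (-2.12 in pCTSH1 and -2.10 in pcDNA), Hnrnpa3 (down to -1.57 and -1.47) and Hnrnpu (-1.15 in both) fell more.

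The A/B group binds UAG-containing silencers in exons and introns, and its members differed. Hnrnpa0, known for binding AU-rich mRNAs, fell already at 6 h, with -0.36 in pCTSH1 and -0.48 in pcDNA, and reached -0.82 and -0.80 at 16 h; averaged over all its probe sets, the 6 h difference in pcDNA was -0.20 and did not pass. Hnrnpa2b1, which also guides mRNA transport, changed by -0.58 and -0.89 at 16 h, and Hnrnpab by -0.64 and -0.86. By contrast Hnrnpa1, the most studied exon silencer, read 11.70 to 11.88 over all arrays, with differences at 16 h of 0.08 ± 0.06 in pCTSH1 and 0.03 ± 0.06 in pcDNA that did not pass the test. With cyclic loess Hnrnpa1 was called in pCTSH1 (0.20). The rat reference lists 50 pseudogenes named for Hnrnpa1, and its probe set may read more than 1 of these copies.

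Other hnRNP genes fell by smaller amounts on their brightest probe sets. Hnrnpu, a scaffold protein of chromatin and the nuclear matrix, changed by -0.27 in pCTSH1 and -0.23 in pcDNA at 6 h, and by -0.68 and -0.62 at 16 h. Its call at 6 h in pcDNA was lost without replicate 1 at 0 h or replicate 2 or 3 at 6 h (-0.21 in each case). Hnrnpll, known in lymphocytes for silencing exons of CD45, changed by -0.64 and -0.54 at 16 h, while its relative Hnrnpl, which binds CA repeats, had differences of -0.16 and -0.06 that did not pass the test. Of the proteins that bind G runs, Hnrnph1 changed by -0.64 and -0.39 and Hnrnph3 by -0.55 and -0.49, and Hnrnpf had positive differences of 0.19 and 0.23 that did not pass. Hnrnpf was called in both lines with arrays centred on their medians (0.28 and 0.32), with cyclic loess (0.30 and 0.33) and with the replicate number as a block, which leaves the differences as they are (adjusted p 0.0448 and 0.0206).

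Hnrnpdl, a relative of the mRNA decay factor Hnrnpd, rose at 16 h on its brightest probe set. It read 11.76, 11.87 and 11.86 in pCTSH1, against 11.25, 11.30 and 11.13 at 0 h, and 11.94, 12.03 and 11.73 in pcDNA, against 11.28, 11.25 and 11.19. The groups did not overlap, and the log2 differences were 0.60 ± 0.09 and 0.66 ± 0.09. Hnrnpd itself had differences of -0.12 and -0.02. Hnrnpr, a relative of the RNA-binding protein Syncrip, changed by -0.22 in pCTSH1 and -0.20 in pcDNA at 6 h, whereas its differences at 16 h were -0.03 and -0.0054. The small early calls of Hnrnpr were lost when single arrays were left out. Without replicate 1 or 3 at 0 h or replicate 3 at 6 h in pCTSH1 the difference was -0.21 to -0.16 (adjusted p 0.0830 to 0.178), and without replicate 1 or 3 at 0 h or 2 or 3 at 6 h in pcDNA it was -0.22 to -0.15 (adjusted p 0.0678 to 0.208).

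Rbfox2 and Elavl4 rose in both lines. Rbfox2, which binds UGCAUG elements beside exons, rose most of all 33 genes and did so at both times. It read 7.23, 6.89 and 7.64 at 0 h, 7.93, 7.83 and 7.92 at 6 h, and 8.75, 8.74 and 8.63 at 16 h in pCTSH1. In pcDNA it read 7.30, 7.29 and 7.65 at 0 h, 8.12, 7.87 and 8.16 at 6 h, and 8.97, 8.87 and 8.76 at 16 h. Each later group lay above the one before it with no overlap. The log2 difference at 16 h was 1.45 ± 0.14 in both lines, a 2.73-fold rise in pCTSH1 and a 2.74-fold rise in pcDNA. The second probe set of Rbfox2 was at background on every array. Averaged with that set, the difference of Rbfox2 at 6 h in pcDNA was 0.11 and did not pass the test.

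Elavl4, which binds AU-rich mRNAs and in beta cells insulin mRNA, had an early peak. It averaged 8.96, 9.70 and 9.58 at 0, 6 and 16 h in pCTSH1, and 8.72, 9.77 and 9.33 in pcDNA. The rise at 6 h was 0.74 ± 0.09 in pCTSH1 and 1.05 ± 0.09 in pcDNA (limma adjusted p 1.1e-06 and 6.4e-09). Between 6 and 16 h the level in pCTSH1 differed by -0.12, which did not pass the test, and that in pcDNA fell by 0.44. The difference between the responses was -0.31 ± 0.12 at 6 h (adjusted p 0.705), which does not separate the lines.

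The pair Ptbp1 and Ptbp2, paralogs that bind pyrimidine tracts and of which Ptbp2 is the neural form, followed different courses. Ptbp1 was lower at 6 h, with -0.28 ± 0.08 in pCTSH1 and -0.33 ± 0.08 in pcDNA, and at 16 h its differences were 0.0064 and -0.0084. It read 10.63 to 10.74 at 6 h in pCTSH1, against 10.87 to 11.01 at 0 h, and 10.48 to 10.63 in pcDNA, against 10.80 to 10.95, with no overlap. Ptbp2 was dim, with 4.41 to 5.43 over all arrays. Its differences at 16 h were 0.50 ± 0.13 in pCTSH1 and 0.44 ± 0.13 in pcDNA, both past the threshold. They may be compressed by the nearby background of 3.88 to 4.17, which was not tested. Without pcDNA replicate 1 at 16 h the difference of Ptbp2 in pcDNA was 0.30 and lost its call.

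Markers moved with the later time. Of 8 beta-cell markers, 6 were lower at 16 h than at 0 h in pCTSH1 and 8 in pcDNA. The log2 of their summed intensity ranged from 15.43 to 15.49 at 16 h in pCTSH1, against 15.73 to 15.76 at 0 h, and from 15.28 to 15.35 in pcDNA, against 15.68 to 15.73. Of 5 neuron markers, all above background on every array, 1 was higher and 1 lower at 16 h in each line, with summed levels of 11.20 to 11.29 against 11.33 to 11.37 in pCTSH1 and 11.16 to 11.35 against 11.32 to 11.35 in pcDNA. The 3′ over 5′ log2 signal of control probe sets is a measure of RNA integrity and labelling. For actin it was 0.60 to 0.68 at 16 h in pCTSH1, against 0.77 to 0.99 at 0 h. In pcDNA it was 0.74 to 0.86, against 0.79 to 0.98. For GAPDH it was higher at 16 h in pCTSH1, -0.21 to -0.15 against -0.28 to -0.19 at 0 h. In pcDNA the GAPDH signal was lower, -0.28 to -0.23 against -0.22 to -0.20. Of 6 macrophage and leukocyte markers, 2 were higher at 16 h in each line, with Csf1r, Itgam and Cd14 at background in all groups, and their summed level was 6.91 to 7.21 against 6.51 to 6.61 in pCTSH1 and 6.85 to 7.06 against 6.52 to 6.57 in pcDNA. Of 3 alpha-cell markers, 1 was lower and Ttr was at background, with summed levels of 6.89 to 7.24 against 8.82 to 9.11 in pCTSH1 and 6.36 to 6.90 against 8.51 to 8.88 in pcDNA. Of 5 exocrine and duct markers, 1 was lower in each line, with Cpa1, Prss1 and Krt19 at background in all groups and summed levels of 9.30 to 9.45 against 9.89 to 10.03 in pCTSH1 and 9.40 to 9.51 against 10.14 to 10.26 in pcDNA. Of 6 fibroblast markers, 1 was lower in each line, with Dcn and Lum at background in all groups and summed levels of 6.27 to 6.44 against 6.56 to 6.91 in pCTSH1 and 6.28 to 6.37 against 6.80 to 7.02 in pcDNA. None of the endothelial, delta-cell and PP-cell markers was called at 16 h. The part of these shifts in the 16 h results was not tested.

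The clone and the control line differed in few splicing regulators. Of the 33 genes, pCTSH1 differed from pcDNA in 1 at 0 h, 0 at 6 h and 2 at 16 h, against 2.56%, 3.99% and 5.28% of all genes. At an unadjusted p of 0.05 the counts were 3, 2 and 5. Differences over all 33 genes ran from -0.37 to 0.24 at 0 h, from -0.21 to 0.17 at 6 h and from -0.34 to 0.33 at 16 h.

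Srsf9, an SR protein with a short tail, was the gene lower in pCTSH1 at 0 and 16 h. It read 9.44, 9.70 and 9.66 at 0 h in pCTSH1, against 10.04, 9.94 and 9.94 in pcDNA and 9.95, 10.08 and 9.98 in INS1. At 16 h it read 9.06, 9.18 and 9.11 in pCTSH1, against 9.56, 9.46 and 9.34 in pcDNA. The groups did not overlap at any time, and the log2 differences from pcDNA were -0.37 ± 0.08 at 0 h, -0.21 ± 0.08 at 6 h and -0.34 ± 0.08 at 16 h (limma adjusted p 0.0157, 0.261 and 0.0200). Against INS1 the difference at 0 h was -0.40 ± 0.08 (adjusted p 0.0061), and without pCTSH1 replicate 1 it was -0.32 (0.0518).

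The calls for Srsf9 were lost when single arrays were left out. Without pCTSH1 replicate 1 at 0 h the difference from pcDNA was -0.29 with an adjusted p of 0.122, and without pcDNA replicate 1 at 0 h it was -0.34 with 0.0995. At 16 h the call was lost without pcDNA replicate 1 or 2 or pCTSH1 replicate 1 or 3 at that time, with differences of -0.34 to -0.29. With arrays centred on their medians, the adjusted p of Srsf9 was 0.0527 at 0 h and 0.0520 at 16 h. Over all alternatives the adjusted p for Srsf9 ran from 0.0019 to 0.174 at 0 h and from 0.0034 to 0.226 at 16 h. Hnrnpa2b1 was higher in pCTSH1 at 16 h by 0.33 ± 0.08 (adjusted p 0.0270), with 11.42, 11.47 and 11.56 in pCTSH1, against 11.13, 11.06 and 11.28 in pcDNA, and its call too was lost without pcDNA replicate 1 or 2 or pCTSH1 replicate 2 or 3 (0.28 to 0.34 for these). With the mean of all its probe sets the difference of Hnrnpa2b1 was 0.13 (adjusted p 0.635), the highest p over its alternatives, and the lowest was 0.0004.

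No response to cytokines was called as different between the lines. Of the 33 genes, 0 passed limma's test at 6 h, at 16 h or between 6 and 16 h, against 0.119%, 0.275% and 0.372% of all genes, and 1, 1 and 2 genes had an unadjusted p below 0.05. The differences in response ran from -0.31 to 0.20 at 6 h and from -0.25 to 0.31 at 16 h. The widest at 16 h was that of Hnrnpa2b1, 0.31 ± 0.11 (adjusted p 0.474). For the 0 h lines without cytokines, pCTSH1 differed from INS1 in 1 gene (Srsf9), against 3.45% of all genes, and pcDNA from INS1 in 0 genes, against 0.0% of all, with 1 gene, Elavl4, at an unadjusted p below 0.05 (-0.21 ± 0.09).

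Several genes were read by more than 1 probe set, and these disagreed on the size of the change and in some genes on its direction. The 33 genes held 56 probe sets, and 13 genes had further probe sets above background on every array, which made 18 pairs of a further with the brightest probe set. Whether both changed equally was tested in limma on the difference between them, a test chosen after the data were seen. At 6 h, 0 of 18 pairs changed unequally in either line, against 2.21% of 2897 such pairs over all genes in pCTSH1 and 3.31% in pcDNA. At 16 h, 15 of 18 pairs (83.3%), in 10 genes, changed unequally in each line, against 46.6% and 47.8% of all pairs. Pairs of the same gene share its brightest probe set and are not independent. The share among pairs of similar brightness was not taken.

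In 13 of these 15 pairs the further probe set changed in the negative direction relative to the brightest, against 39.1% of the unequal pairs over all genes in pCTSH1 and 38.7% in pcDNA. Brightness was ranked on all arrays, those at 16 h included, so the ranking is not independent of the change. Ranked on the INS1 arrays alone, which enter no cytokine comparison and were tried after the data were seen, the dimmer set of the pair changed in the negative direction in 12 of 15 pairs in each line, against 34.2% and 33.8%. Srsf6 showed the widest gap: its second probe set read 6.00, 6.84 and 7.10 at 16 h in pCTSH1, against 9.17, 9.15 and 8.83 at 0 h. In pcDNA this probe set read 6.75, 6.75 and 7.15 at 16 h, against 9.30, 9.06 and 9.08 at 0 h. It changed by -2.40 and -2.26, whereas the brightest changed by -0.49 and -0.62. The gap was -1.92 ± 0.13 in pCTSH1 and -1.64 ± 0.13 in pcDNA (limma adjusted p 5.6e-10 and 3.4e-09).

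Another 4 genes had a second probe set that fell further than the brightest. That of Srsf1 changed by -2.12 in pCTSH1 and -2.02 in pcDNA, that of Srsf2 by -1.55 and -1.35, that of Srsf3 by -1.63 and -1.35, and that of Hnrnpu by -1.15 in both. Hnrnpa3, an exon silencer with no call on its brightest probe set, had 4 further probe sets that all fell, with -1.57 to -0.38 in pCTSH1 and -1.47 to -0.41 in pcDNA. For Srsf10, Srsf11 and Tra2a no unequal change was called.

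Opposite calls among these pairs occurred in Hnrnpdl, Hnrnph3 and Tra2b in both lines. The second probe set of Hnrnpdl changed by -0.61 in pCTSH1 and -0.70 in pcDNA, whereas the brightest changed by 0.60 and 0.66. The second of Hnrnph3 rose by 0.56 in both lines while the brightest fell, and the second of Tra2b changed by -0.21 and -0.19 while the brightest rose. Hnrnpa2b1 had a second probe set with differences of 0.40 in pCTSH1, which did not pass the test, and 0.49 in pcDNA, which did, and the third probe set changed by -2.12 and -2.10. The dimmest probe set of Srsf3, above background on 18 of 21 arrays and so outside the pairs, was called higher (0.70 in pCTSH1, 0.84 in pcDNA) while the brightest fell, and the dimmest of Hnrnpdl, above background on 11 arrays, was called lower in pCTSH1 (-0.43). The files give no position of the probe sets along the transcripts, so which exons or isoforms each one reads is not stated here.

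**Figure D3:**
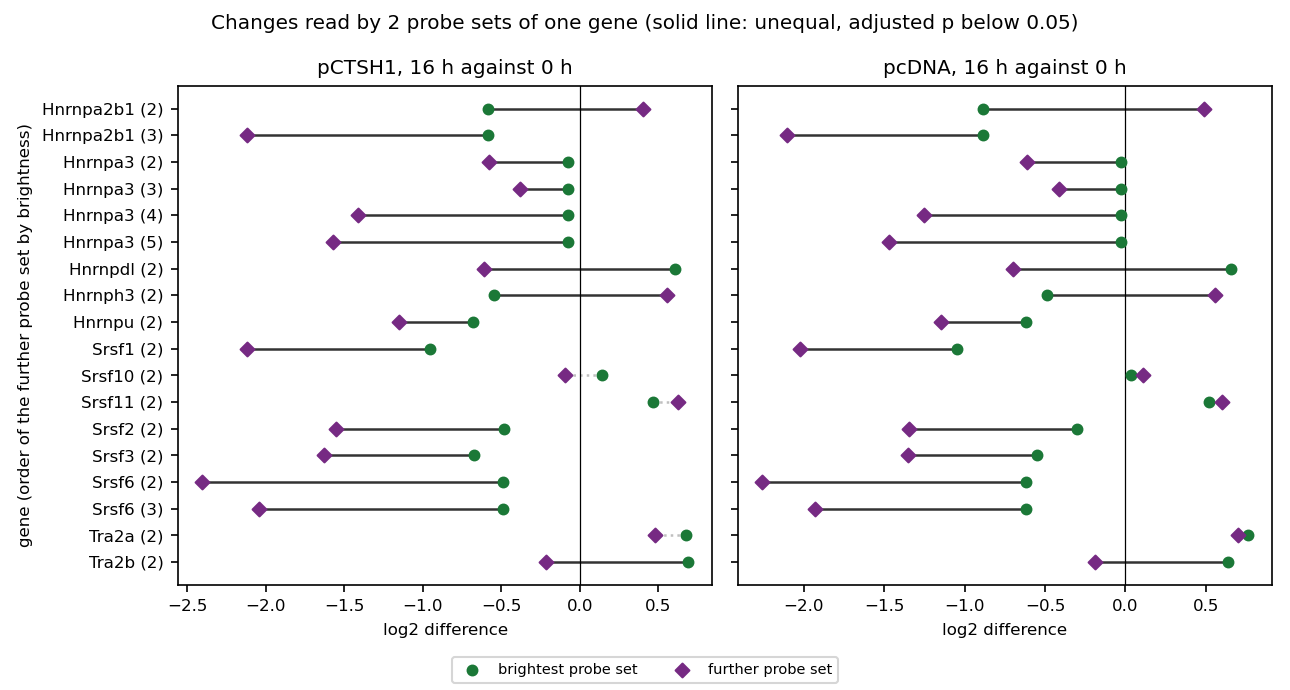
Log2 difference at 16 h against 0 h of cytokines read by the brightest probe set (green circles) and a further probe set (purple diamonds) of the same gene, for 18 pairs in pCTSH1 (left) and pcDNA (right); solid lines join pairs that changed unequally (limma, adjusted p below 0.05) and dotted lines the others. In both lines 15 of 18 pairs are joined by solid lines, and the pairs of Hnrnpdl, Hnrnph3, Tra2b and 1 pair of Hnrnpa2b1 lie on both sides of 0.

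Genes that act with these regulators changed in both directions as well, and the counts stand against 55.2% of all genes called in pCTSH1 and 55.3% in pcDNA at 16 h, and 76.4% and 76.3% of the brighter 50%. Of 10 listed SR protein kinases and their import receptor, 9 were measured, and 6 were higher and 2 lower at 16 h in each line. Clk1, a nuclear kinase of SR proteins, rose by 1.49 in pCTSH1 and 1.56 in pcDNA, and Dyrk1a by 1.34 and 1.57, while the cytoplasmic kinase Srpk1 changed by -1.38 and -1.15. The median difference of the 9 was 0.56 in pCTSH1 and 0.67 in pcDNA, against -0.01 and -0.0045 over all genes.

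Of 36 listed spliceosome core genes, 30 were measured, with 6 higher and 10 lower in pCTSH1 and 7 higher and 10 lower in pcDNA at 16 h. The U5 GTPase Eftud2 changed by -1.03 in pCTSH1 and -1.12 in pcDNA, and the tri-snRNP protein Prpf6 rose by 0.78 and 0.76. Of 44 other splicing regulators, 35 were measured, with 9 higher and 8 lower in pCTSH1 and 10 higher and 7 lower in pcDNA. Sfpq, a paraspeckle protein, changed by -2.74 and -2.75, and Celf5, a brain-enriched splicing regulator, by -2.52 and -2.74, while Ptbp3, a paralog of Ptbp1, rose by 1.61 and 1.31.

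Of 15 genes of nonsense-mediated decay, 11 were measured, with 3 higher and 4 lower in pCTSH1 and 4 higher and 4 lower in pcDNA at 16 h. Upf3b, which links the exon junction complex to the decay machinery, changed by -1.37 in pCTSH1 and -1.45 in pcDNA, and Magoh, a core protein of that complex, by -1.05 and -1.02. Upf2, the partner of both Upf1 and Upf3b, rose by 0.67 and 0.96. Between pCTSH1 and pcDNA, 1 gene of these 4 lists was called at 0 h, 2 at 6 h and 2 at 16 h, against 2.56%, 3.99% and 5.28% of all genes, and these genes are named here after their values were seen. Rbfox3, a neuronal paralog of Rbfox2 and one of the 5 neuron markers, was higher at each time, and at 0 h averaged 7.20 ± 0.31 in pCTSH1 and 6.27 ± 0.31 in pcDNA (SD, n = 3 arrays each; limma adjusted p 0.0205). Its differences at 0, 6 and 16 h were 0.93, 0.84 and 0.77. Elavl2, a paralog of Elavl4, was lower at 6 h (-0.48), and Mbnl2, a muscleblind splicing regulator, at 16 h (-0.37).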

How the data were processed

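RNA from 21 samples (7 groups of 3) was hybridised to Affymetrix rat arrays, 1 array per sample, from 100 ng of total RNA, per the labels' protocols. The authors deposited log2 intensities, 1 per probe set and array, which were used unchanged. The submitters' processing notes name RMA, affy and limma and give no versions. RMA normalises quantiles between arrays, which makes values relative to the whole array. Of 31137 probe sets, 95 controls were set aside and 31042 tested, with no filter on dim values. A single symbol was listed for 19063. Background was the highest nonspecific control of each array, 3.88 to 4.17; between 61.4% and 71.0% of probe sets lay above it, and their number limits the precision.

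Comparisons came from limma 3.58.1 (R 4.3.3), with lmFit and eBayes in 1 model of 7 group means, two-sided, with Benjamini-Hochberg adjustment over all 31042 probe sets; calls needed an adjusted p below 0.05. The ± in the text is the standard error from that fit unless marked SD. The script was tested on simulated data. Any gene of the rule could be named, and from each companion list up to 2 with the largest and 2 with the smallest difference at 16 h. The members and lists were chosen with earlier results of these data known. Same-numbered arrays deviated together (all 3 correlations over 0.1) for pCTSH1 with pcDNA and pcDNA with INS1 at 0 h, with no shared day or culture in the labels. Alternatives were a replicate block, other scalings, a filter, other variance models, the mean of all probe sets and leaving out each array. Figures used matplotlib 3.10.9 (Python 3.11.15). Promoters came from RefSeq (GRCr8).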

Additional observations from a re-analysis of the deposited data

How the results depend on the processing

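At 16 against 0 h, 20 of 22 calls in pCTSH1 and 19 of 24 in pcDNA were kept in every alternative that tested the gene, at 16 against 6 h 17 of 23 and 18 of 26, at 6 against 0 h 6 of 8 and 4 of 12, and none of the calls between the lines. Calls were also gained: at 16 against 0 h in pCTSH1, cyclic loess added 4 (Hnrnpa1, Hnrnpc, Hnrnpf and Srsf10). At 6 h in pcDNA, Hnrnpa0 and Rbfox2 lost their calls only with the mean of all probe sets. That mean took in their second probe sets, which were at or near background. Ptbp2 was not tested among the brighter 50% of probe sets. The pcDNA count at 6 h, 12, was 7 with cyclic loess and 7 with only the arrays compared, and 7 to 10 on leaving out an array. For pCTSH1 against pcDNA at 0 h the count of 1 was 0 with median centring, 2 with trend and robust eBayes, 0 with only the arrays compared, and 0 to 1 on leaving out an array. At 6 h the count of 0 was 1 with trend and robust eBayes. At 16 h the count of 2 was 1 with median centring, 0 with only the arrays compared, 1 with the mean of all probe sets, and 0 to 2 on leaving out an array. For pCTSH1 against INS1 the count of 1 was 2 with trend and robust eBayes, 0 with only the arrays compared, and 0 to 1 on leaving out an array. Only-the-arrays fits have fewer residual degrees of freedom. What changed the counts was not tested for any setting.

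With the mean of all probe sets, which joins sets that changed unequally, directions reversed at 16 against 0 h for Hnrnpdl (-0.14 in pCTSH1, -0.0632 in pcDNA) and Hnrnph3 (0.0041 in pCTSH1, 0.0335 in pcDNA). At 16 against 6 h they reversed for Hnrnpdl (-0.0528 in pCTSH1), Hnrnph3 (0.10 in pcDNA) and Hnrnpa3 (-0.72 in pcDNA). Unequal pairs numbered 15 in each line at 16 h, 14 to 16 in pCTSH1 and 15 in pcDNA over the alternatives.

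Correlations of same-numbered deviations ran from -0.09 to 0.24. All 3 exceeded 0.1 for pCTSH1 with pcDNA and for pcDNA with INS1, both at 0 h, and not in the other 19 group pairs, and 79 of 126 best matches fell on the own number, a hint from the data that same-numbered arrays share variation. With the replicate block the comparisons of pCTSH1 with pcDNA at 0, 6 and 16 h kept counts of 1, 0 and 2, with Srsf9 at an adjusted p of 0.0165 at 0 h, and those with INS1 kept 1 and 0. With the block the counts at 16 against 0 h were 23 in pCTSH1 and 26 in pcDNA, and at 6 h 9 and 12. Replicates lay further apart at 16 h (root mean square SD of the members 0.144 in pCTSH1 and 0.120 in pcDNA) than at 6 h (0.076 and 0.084), while the model takes 1 spread for all groups.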
